A study of Mus musculus with 13 samples.

Results

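Libraries labelled Setd2 knockout were compared with wild type by bulk RNA-seq of mouse HSPCs. These are the hematopoietic stem and progenitor cells of bone marrow from which blood cells form. The comparison used 4 of the 13 samples of the series: 2 labelled Setd2 knockout and 2 labelled wild type, each from bone marrow and each given by its genotype alone. All genes with enough counts entered, which was 19289 of the 55421 genes listed. The other 9 samples were 3 bulk libraries with mutated Srsf2, 3 with both lesions, and 3 single-cell samples. The 6 other bulk libraries entered the model for its estimate of the spread and are given as levels in a few places, and the single-cell samples were not analysed here. For the single-cell samples the labels name lineage-negative, c-Kit-positive cells and mice with Mx1-Cre, a recombinase that interferon induces, switched on by pIpC in a bone marrow transplant model. For the bulk libraries the labels give neither the sort, the Setd2 allele, the driver of its deletion, the transplant, the age nor the sex, and do not say whether the 2 libraries of a group came from separate mice. The p-values below therefore weigh differences against a spread between libraries that may be technical. That spread was estimated over all 10 bulk libraries.

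Setd2 encodes the enzyme that adds the third methyl group to lysine 36 of histone H3 (H3K36me3) as it travels with RNA polymerase II along transcribed genes. The mark is read by proteins that bind splicing factors, restrain transcription from inside gene bodies and guide DNA methylation. Other enzymes of the same family add the lower methylation states, and demethylases remove them. In bone marrow, progenitors choose between red cells, platelets, granulocytes, monocytes and lymphocytes, and each path has its own transcription factors, receptors and late products. The series title ties Setd2 and Srsf2, a splicing factor mutated in myelodysplastic syndrome, to myeloid-derived suppressor cells, which are immature neutrophils and monocytes that restrain immunity.

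Libraries held 45176730 and 45499806 counts in wild type, and 42367739 and 43507677 in the knockout. Expression is given below as CPM, the count scaled to a common library size after TMM normalization, with replicates 1 and 2 of wild type first and those of the knockout second. Of the genes named below as called, Egr1 is the only one whose library values overlapped between the groups. The wild type libraries lay further apart than the knockout libraries, with a biological coefficient of variation of 0.105 against 0.0563. Among 7605 genes of at least 20 CPM, 11 differed at least 2-fold between the wild type libraries and 0 between the knockout libraries. Wild type replicate 1 was higher in immediate early genes such as Egr1 (377 and 149.5 CPM), and wild type replicate 2 in late neutrophil genes such as Camp (1439.9 and 2593 CPM). More genes had a count in the knockout: 24079 and 24117, against 20545 and 21226 in wild type. Thinned to the same depth these were 23517 and 23482 against 19988 and 20571.

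The cells carried progenitor markers in every library. Kit, the stem cell factor receptor, stood at 446 and 399 CPM in wild type and at 455 and 434 CPM in the knockout. Cd34, a progenitor surface protein, stood at 308 and 281 CPM in wild type and at 227 and 229 CPM in the knockout and was lower in the knockout (log2 fold change -0.37 ± 0.0895 SE, adjusted p = 0.00393). Flt3, a cytokine receptor of multipotent progenitors, stood at 87.2 and 81 CPM in wild type and at 76.7 and 74.3 CPM in the knockout (adjusted p = 0.151). The T cell gene Cd3e was near 0, at 0.0235 and 0 CPM in wild type and at 0 and 0.0212 CPM in the knockout. The stromal gene Col1a1 was at most 0.564 CPM in any of the 4 libraries. Some other genes listed below for these cell types were not near 0. Group means, wild type first, were 37.7 and 22.4 CPM for Pdgfrb among the stromal genes. For Tcf7 among the T and NK cell genes they were 8.05 and 3.43 CPM.

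The sex-linked genes set the groups apart. Xist, the RNA that coats the inactive X chromosome of female cells, stood at 499 and 472 CPM in wild type and at 0.562 and 0.635 CPM in the knockout. The Y chromosome genes Ddx3y, Uty, Kdm5d and Eif2s3y had 0 counts in all 4 libraries, and 3 counts over a group, the limit that a count of 0 allows, would be 0.0353 CPM for wild type and 0.0321 CPM for the knockout. Xist was thus present in the wild type libraries and close to absent from the knockout libraries, with no Y-linked reads in either. Of the X-linked genes known to escape inactivation, Kdm5c (-0.58), Eif2s3x (-0.48) and Kdm6a (-0.40) were lower on the log2 scale in the knockout, and Ddx3x was higher (0.22). Across the 469 X-linked genes chosen on the 6 other libraries the median log2 fold change was 0.01, against -0.03 over all 15265 genes chosen in that way. The part that this difference had in the results below was not tested.

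Setd2 itself (chromosome 9, 110532597 to 110618633 on GRCm38) was measured at 158 and 145 CPM in the wild type libraries and 231 and 213 CPM in the knockout libraries. Both knockout libraries were above both wild type libraries, and the gene was called higher (log2 fold change 0.55 ± 0.121 SE, adjusted p = 0.00204). Here and below, p-values come from edgeR's quasi-likelihood test with Benjamini-Hochberg adjustment across the table. A count over the whole gene need not show the loss of some of its exons, so this level does not check the deletion, and "knockout" below means the libraries labelled so. Of 7 tested H3K36 methyltransferase genes, Setd2 included, 5 were called higher and 0 lower, with a median log2 fold change of 0.37 against 0.04 over all tested genes. Over the whole table, 18.7% of genes were called higher and 19.9% lower. Ash1l, which adds the second methyl group, went from 56.8 and 52.5 to 93.8 and 84.5 CPM (log2 fold change 0.70 ± 0.15 SE, adjusted p = 0.00158). Nsd3, another dimethyltransferase, went from 116 and 109 to 148 and 142 CPM (log2 fold change 0.37 ± 0.0837 SE, adjusted p = 0.00262). Nsd1 (log2 fold change 0.40) and Setd5 (0.28) lost their calls when any 1 of the 4 libraries was left out, and the count of higher genes was then 3. Nsd2, mutated in lymphoid cancers, stood at 245 and 239 CPM in wild type and at 218 and 208 CPM in the knockout (adjusted p = 0.0778).

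Enzymes that remove the mark and proteins that read it were called less uniformly. Of 6 demethylase genes, 0 were higher and 2 lower, among them Kdm4b, which acts on trimethylated lysine 36 and lysine 9 (47 and 48.1 to 37.1 and 33.6 CPM, log2 fold change -0.43 ± 0.0989 SE, adjusted p = 0.00278). That call ended with scaling to total counts, with a correction for GC content and without knockout replicate 2, and 1 demethylase was lower without wild type replicate 2 or without either knockout library. Of 16 readers and partners, 6 were higher and 2 lower, with a median of 0.11. Psip1, whose PWWP domain binds nucleosomes carrying H3K36 methylation, stood at 108 and 91.6 CPM in wild type and at 131 and 127 CPM in the knockout (log2 fold change 0.37 ± 0.0816 SE, adjusted p = 0.00193). Brpf3, a scaffold of histone acetyltransferases, went from 47.1 and 50.7 to 71.7 and 73.8 CPM (log2 fold change 0.57 ± 0.094 SE, adjusted p = 0.000183). Glyr1, a nucleosome-binding partner of a lysine demethylase, was lower (-0.32), although not with scaling to total counts. Between 3 and 10 readers were called higher over the 13 alternatives, with 3 without wild type replicate 2 and 3 without knockout replicate 1. In Polycomb repressive complex 2, whose H3K27 methylation is inhibited by H3K36 methylation, Ezh2 (0.35) and Eed (0.38) were higher and Rbbp4 (-0.56) and Epop (-0.64) lower among 9 tested members. Over all protein-coding genes 16.4% were higher and 25.9% lower.

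In all, 7449 genes were called at an adjusted p under 0.05, which is 38.6% of the table, 3603 of them higher and 3846 lower in the knockout. At a change of at least 2-fold the balance was uneven, with 1984 higher (10.3%) and 542 lower (2.81%). In 73.1% of tested genes the library values of the groups did not overlap. Among the 14070 protein-coding genes 16.4% were higher and 25.9% lower. Counts in the lists of protein-coding genes below are to be read beside these shares. The split between the directions followed the scaling: 48.4% of calls were higher with TMM factors, 59.5% with upper-quartile scaling, 59.2% with a correction for GC content and 73.4% with scaling to total counts. Total counts moved the median over all genes by 0.22 on the log2 scale. For this reason small changes shared by large groups of genes are given below with their range over the alternatives.

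Genes of red cell formation were higher in the knockout as a block. Of 60 tested erythroid genes, in 6 lists that run from transcription factors to globins, 49 were called higher and 2 lower, with a median log2 fold change of 0.91. In bulk RNA, more cells of a type and more RNA per cell cannot be told apart, here and in all cell type genes below. The plot of levels by library shows that the knockout libraries lay above both wild type libraries for each red cell gene drawn.

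**Figure D1:**
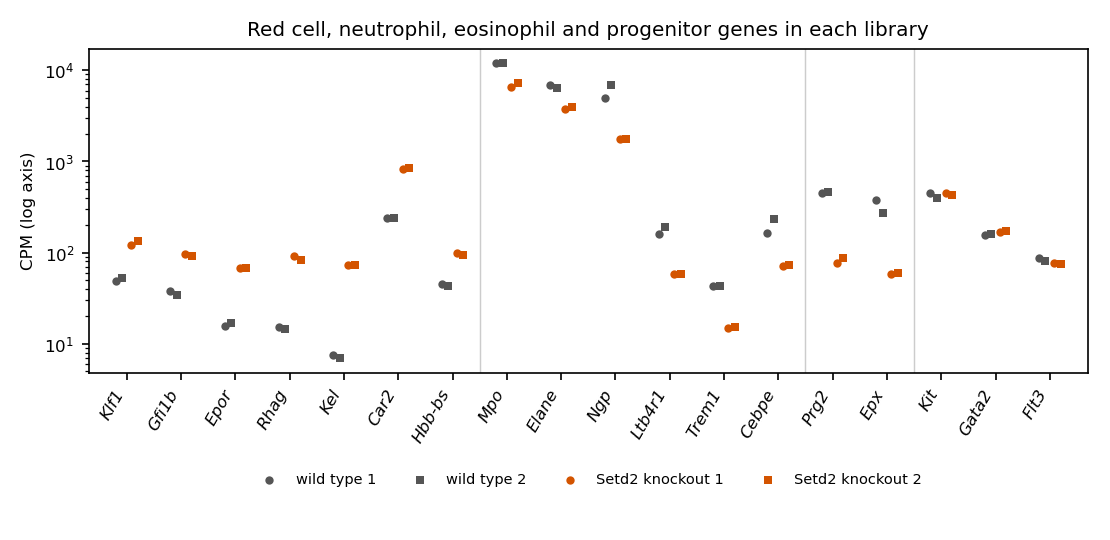
Expression in CPM (log axis) of 18 genes in each of the 4 libraries, grey for wild type and orange for Setd2 knockout, circles for replicate 1 and squares for replicate 2. From left to right the red cell genes are higher in both knockout libraries, the neutrophil and eosinophil genes lower, and the progenitor genes Kit, Gata2 and Flt3 apart by little.

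The transcription factors of this lineage had a median of 0.51. Klf1 (chromosome 8, 84901928 to 84905291), which drives globin and membrane genes, was measured at 48.8 and 53 CPM in the wild type libraries and 122 and 135 CPM in the knockout libraries (log2 fold change 1.34 ± 0.148 SE, adjusted p = 4.25e-06). Gfi1b, a repressor needed for red cells and platelets, stood at 38 and 34.1 CPM in wild type and at 97.3 and 93 CPM in the knockout (log2 fold change 1.40 ± 0.0984 SE, adjusted p = 3.57e-08). Gata1, the X-linked master factor of the lineage, stood at 43.6 and 45.9 CPM in wild type and at 80.6 and 86.9 CPM in the knockout (log2 fold change 0.90 ± 0.101 SE, adjusted p = 4.73e-06). In each of these the lower knockout library was well above the higher wild type library. Their cofactors Tal1 and Ldb1 rose by 0.57 and 0.56 on the log2 scale. Among the 12 factors tested, 10 were higher and 1 was lower, which was Nfe2, a factor of globin and platelet genes (215 and 245 to 141 and 149.5 CPM, log2 fold change -0.66 ± 0.0867 SE, adjusted p = 2.21e-05). Lmo2, which bridges the other factors, stood at 257 and 291 CPM in wild type and at 277 and 301 CPM in the knockout (adjusted p = 0.519).

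Receptors came next. Epor, the receptor of erythropoietin (chromosome 9, 21958897 to 21963506), was measured at 15.6 and 17 CPM in the wild type libraries and 68.3 and 67.7 CPM in the knockout libraries (log2 fold change 2.06 ± 0.119 SE, adjusted p = 4.74e-09). The transferrin receptors, which bring iron into the cell, were higher too: Tfrc went from 215 and 186 to 413 and 384 CPM (log2 fold change 0.99 ± 0.0813 SE, adjusted p = 1.93e-07), and Tfr2 from 81.5 and 75.9 to 164 and 168 CPM (log2 fold change 1.07 ± 0.0823 SE, adjusted p = 9.06e-08). Stat5b, a signal carrier below the erythropoietin receptor, stood at 214 and 211 CPM in wild type and at 199 and 191 CPM in the knockout (adjusted p = 0.283). In this list 3 of 6 members were higher and 0 lower, and 5 were higher with total count or upper-quartile scaling.

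The membrane skeleton and the blood group proteins had the highest median of the 6 lists, 2.13, with 15 of 17 tested members higher and 0 lower. Rhag, the ammonia channel that carries the Rh antigens, stood at 15.3 and 14.6 CPM in the wild type libraries and 90.8 and 82.8 CPM in the knockout libraries (log2 fold change 2.54 ± 0.101 SE, adjusted p = 1.24e-10). Kel, the blood group protease, stood at 7.46 and 7.01 CPM in wild type and at 74 and 73 CPM in the knockout (log2 fold change 3.34 ± 0.134 SE, adjusted p = 1.35e-10). Sptb, which encodes a spectrin of the skeleton, rose 6.62-fold, from 11.9 and 12.8 to 80 and 83.7 CPM. Slc4a1, the anion exchanger known as band 3, went from 1.08 and 1.76 to 8.4 and 9.06 CPM (log2 fold change 2.62 ± 0.152 SE, adjusted p = 5e-09). It is a late product of the lineage and stood at low levels in all 4 libraries. Epb41, a skeletal protein that other cells make as well, stood at 182 and 172 CPM in wild type and at 173 and 177 CPM in the knockout (adjusted p = 0.908).

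Promoters of these genes are shown because Gata1, 1 of the factors above, binds GATA motifs. The windows are the 250 bases before the start site in the RefSeq table of build GRCm38.p6, written 5′ to 3′ on the strand of the gene, with each AGATAA or TGATAA, or its reverse complement TTATCT or TTATCA, in capitals. Rhag and Kel are the erythroid genes, and Prg2 and Epx the eosinophil genes, of smallest adjusted p. The table matched Rhag, Kel and Epx.
Rhag promoter (chr17:40810899-40811148, plus strand): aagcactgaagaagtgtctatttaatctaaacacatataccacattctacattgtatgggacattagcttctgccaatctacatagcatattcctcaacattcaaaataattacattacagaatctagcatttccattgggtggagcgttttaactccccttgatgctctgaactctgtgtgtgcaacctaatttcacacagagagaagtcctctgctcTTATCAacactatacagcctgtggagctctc
Kel promoter (chr6:41704326-41704575, minus strand): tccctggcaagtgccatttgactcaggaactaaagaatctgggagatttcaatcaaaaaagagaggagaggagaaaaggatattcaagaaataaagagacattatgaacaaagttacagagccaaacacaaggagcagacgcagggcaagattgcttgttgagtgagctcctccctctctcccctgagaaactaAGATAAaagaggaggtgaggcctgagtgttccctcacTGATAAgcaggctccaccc
Epx promoter (chr11:87875537-87875786, minus strand): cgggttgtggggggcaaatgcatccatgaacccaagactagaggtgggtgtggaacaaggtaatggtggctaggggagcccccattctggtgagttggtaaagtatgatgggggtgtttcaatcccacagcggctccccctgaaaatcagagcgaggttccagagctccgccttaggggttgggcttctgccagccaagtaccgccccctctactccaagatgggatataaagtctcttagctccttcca
Rhag had 1 match, which began 31 bases before the start site, and Kel had 2, which began 56 and 19 bases before it. Epx had 0 matches in this window. Of the 27025 promoters in the table, 1 per gene symbol, 4571 (16.9%) held at least 1 of these motifs, and of 11027 matched promoters of tested protein-coding genes 1069 (9.69%) did. A match is a string of letters and not a binding site. Only 46 of the 60 erythroid genes were matched, and 17 of these (37%) held a motif. Of the 10 eosinophil genes 8 were matched, and 3 of these (37.5%) held 1. The differences between these shares were not tested.

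Genes of heme synthesis and iron import were higher: 13 of 14 were called so and 1 was lower, with a median of 0.78. Alas2, the X-linked first enzyme of the red cell pathway, stood at 1.93 and 1.88 CPM in wild type and at 5.75 and 5.35 CPM in the knockout (log2 fold change 1.54 ± 0.111 SE, adjusted p = 4.66e-08). Cpox and Ppox, which act late in the pathway, went from 86.8 and 92.4 to 236 and 233 CPM (log2 fold change 1.39 ± 0.078 SE, adjusted p = 3.63e-09) and from 30.4 and 33.9 to 71.8 and 76 CPM (2.3-fold higher, adjusted p = 3.24e-08). Slc25a38, which imports glycine for heme into the mitochondrion, went from 26.5 and 27.5 to 47.2 and 52.3 CPM (log2 fold change 0.88 ± 0.0874 SE, adjusted p = 1.34e-06). The exception was Abcb10, a mitochondrial transporter (111 and 110.5 to 85.8 and 86.8 CPM, log2 fold change -0.36 ± 0.0769 SE, adjusted p = 0.00165), and its call ended with total count scaling and with the GC correction.

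Enzymes and globins followed. The carbonic anhydrase gene Car2 went from 241 and 239 to 831 and 849 CPM (log2 fold change 1.81 ± 0.0795 SE, adjusted p = 3.02e-10), and its neighbour Car1 from 267 and 213 to 604 and 586 CPM (log2 fold change 1.31 ± 0.108 SE, adjusted p = 1.92e-07). Pklr, the red cell pyruvate kinase, went from 27.8 and 30.9 to 108 and 113 CPM (log2 fold change 1.91 ± 0.104 SE, adjusted p = 2.38e-09). Of 7 enzymes 5 were higher and 0 lower. Adult globins were higher but remained scarce. Hbb-bs stood at 45.8 and 43.6 CPM in wild type and at 98.8 and 94 CPM in the knockout (log2 fold change 1.11 ± 0.105 SE, adjusted p = 8.04e-07), and Hba-a1 at 27.9 and 30.2 CPM in wild type and at 80.8 and 78.2 CPM in the knockout (log2 fold change 1.45 ± 0.111 SE, adjusted p = 8.8e-08). Hba-a2 stood at 8.09 and 7.34 CPM in wild type and at 8.02 and 11.2 CPM in the knockout (adjusted p = 0.715), and since the alpha globin copies are nearly identical, their reads may have been split between them. The embryonic genes Hba-x, Hbb-bh1 and Hbb-y had 0 counts in all 4 libraries.

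Platelet genes went the other way in part. Of 18 megakaryocyte genes, 0 were higher and 9 lower, with a median of -0.56, beside 16.4% and 25.9% of all protein-coding genes. The 9 others were not called. Of these Gp1ba (0.20), Gp5 (0.13) and Clec1b (0.90) had log2 fold changes above 0. For Gp9, Pf4, Ppbp, Vwf, Rab27b and Tubb1 they were below 0. Cd9, a membrane protein of platelets, stood at 87.1 and 87.3 CPM in wild type and at 44.8 and 41.8 CPM in the knockout (log2 fold change -1.01 ± 0.1 SE, adjusted p = 1.33e-06), and Itgb3, which forms the fibrinogen receptor with Itga2b, at 44.5 and 48.1 CPM in wild type and at 25.1 and 24 CPM in the knockout (log2 fold change -0.92 ± 0.116 SE, adjusted p = 1.65e-05). Fli1, a transcription factor of this lineage, went from 104 and 104 to 73.2 and 69.7 CPM (log2 fold change -0.55 ± 0.0823 SE, adjusted p = 8.51e-05). Vwf, which platelets and stem cells share, stood at 39.9 and 38.4 CPM in wild type and at 36.9 and 34 CPM in the knockout (adjusted p = 0.52). Late products were few in both groups, with Pf4, platelet factor, at 30.9 and 29.9 CPM in wild type and at 24.5 and 24.5 CPM in the knockout (adjusted p = 0.123).

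Stem cell genes were mixed. Of 23 tested, 5 were higher, 3 lower and 15 not called. Their median of -0.06 was positive in 7 of the 13 alternatives, up to 0.19 with the stricter filter, and 6 were lower in the fit of the 2 groups alone. Mllt3, a factor that maintains stem cells in culture, went from 18.1 and 15.8 to 31.8 and 30.3 CPM (log2 fold change 0.87 ± 0.114 SE, adjusted p = 2.23e-05), and Hoxa9, a homeobox gene of progenitors, from 18.2 and 18.7 to 29.4 and 27.1 CPM (log2 fold change 0.61 ± 0.107 SE, adjusted p = 0.000328). Against them stood Ly6a, the Sca-1 antigen of stem cells (8.38 and 8.59 to 3.31 and 2.98 CPM, log2 fold change -1.43 ± 0.208 SE, adjusted p = 6.17e-05), and Hlf (-0.54). Mecom (0.60) lost its call when any 1 library was left out.

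**Figure D2:**
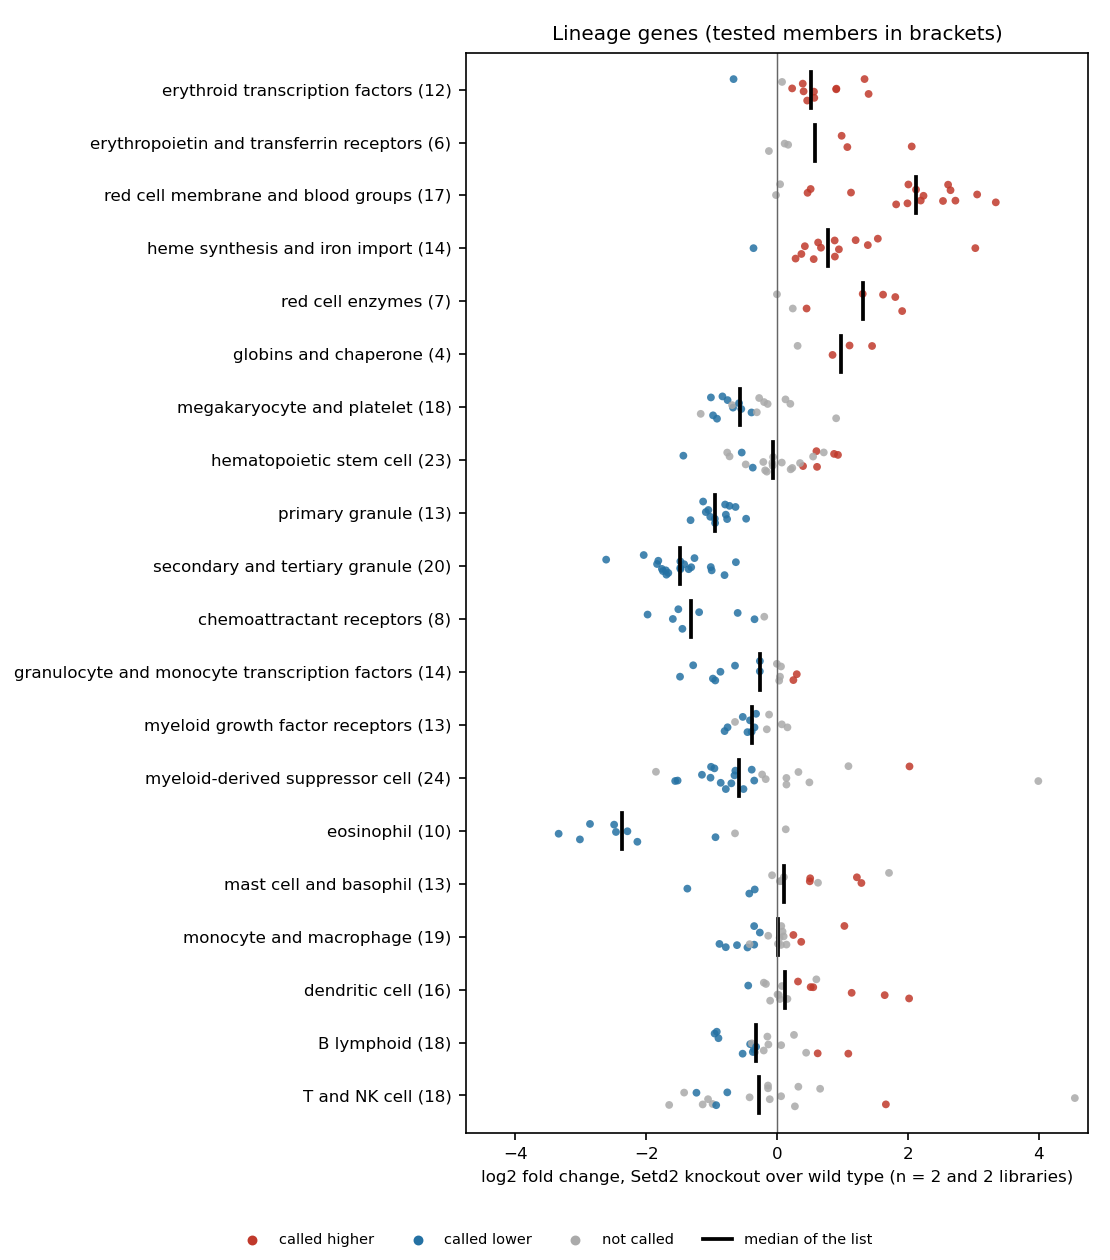
Log2 fold change of each tested member of 20 lineage lists, knockout over wild type, with red for genes called higher, blue for lower, grey for not called, and a black bar at the list's median. The 6 red cell lists lie to the right of 0, and the granule, chemoattractant receptor and eosinophil lists to the left, with medians from -0.95 to -2.37.

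Neutrophil genes were lower for the most part. Of 55 tested genes in 4 lists, 48 were called lower and 2 higher, with a median of -1.02. All 13 primary granule genes were lower (median -0.95). Elane, neutrophil elastase (chromosome 10, 79886247 to 79888215), was measured at 6938 and 6406 CPM in the wild type libraries and 3773 and 3929.7 CPM in the knockout libraries (log2 fold change -0.79 ± 0.0848 SE, adjusted p = 2.96e-06). Cst7, a protease inhibitor, stood at 258 and 247 CPM in wild type and at 100.1 and 102 CPM in the knockout (log2 fold change -1.32 ± 0.0881 SE, adjusted p = 2.09e-08), and Prtn3, proteinase 3, at 4509 and 5127 CPM in wild type and at 2213 and 2444 CPM in the knockout (log2 fold change -1.05 ± 0.103 SE, adjusted p = 1.24e-06). Ms4a3, a marker of granulocyte and monocyte progenitors, went from 710.5 and 699.8 to 321 and 343 CPM (log2 fold change -1.09 ± 0.101 SE, adjusted p = 6.94e-07).

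Genes of later granules were lower by a larger median. All 20 secondary and tertiary granule genes were called lower (median -1.48). Ngp, neutrophilic granule protein, stood at 4976 and 6950.4 CPM in the wild type libraries and 1746 and 1779 CPM in the knockout libraries (log2 fold change -1.76 ± 0.121 SE, adjusted p = 2.83e-08). Ltf, lactoferrin, stood at 2275 and 3605 CPM in wild type and at 1026 and 1086 CPM in the knockout (log2 fold change -1.48 ± 0.141 SE, adjusted p = 8.59e-07), and Lcn2, which binds bacterial siderophores, at 1218 and 1648 CPM in wild type and at 496 and 532 CPM in the knockout (log2 fold change -1.48 ± 0.117 SE, adjusted p = 1.27e-07). In these the wild type libraries differed from each other, replicate 2 being higher, but both exceeded both knockout libraries. Summed over the list, expression was 23176 and 31662 CPM in wild type, against 8823 and 9429 CPM in the knockout. Padi4, which citrullinates histones in neutrophil traps, went from 89.8 and 117 to 36.5 and 38 CPM (log2 fold change -1.48 ± 0.101 SE, adjusted p = 2.79e-08). Cybb, the X-linked core of the NADPH oxidase, went from 489 and 583 to 222 and 210.1 CPM (log2 fold change -1.31 ± 0.0911 SE, adjusted p = 3.17e-08). Over the 13 alternatives 19 or 20 of the 20 were lower.

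Of 8 receptor genes of neutrophils, most of which guide these cells, 7 were lower. Csf3r, the G-CSF receptor, is 1 of the 7 and is counted again with the cytokine receptors below. The complement receptor C5ar1 stood at 25.6 and 33.4 CPM in wild type and at 7.11 and 7.87 CPM in the knockout (log2 fold change -1.98 ± 0.119 SE, adjusted p = 6.93e-09), and the chemokine receptor Cxcr2 at 20.2 and 24.8 CPM in wild type and at 10.1 and 9.71 CPM in the knockout (log2 fold change -1.19 ± 0.102 SE, adjusted p = 2.98e-07). Fpr2, a formyl peptide receptor, went from 15.2 and 19.6 to 6.33 and 5.9 CPM (log2 fold change -1.51 ± 0.148 SE, adjusted p = 1.21e-06). Its relative Fpr1 stood at 1.67 and 2.59 CPM in wild type and at 1.86 and 1.86 CPM in the knockout (adjusted p = 0.469).

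The transcription factors of the granulocyte and monocyte path showed the same direction, with 8 of 14 lower and 2 higher (median -0.26). Cebpe, needed for secondary granules, stood at 165 and 236 CPM in wild type and at 70.6 and 72.9 CPM in the knockout (log2 fold change -1.48 ± 0.157 SE, adjusted p = 2.71e-06). Cebpa, which starts the path, stood at 341 and 354 CPM in wild type and at 174 and 187 CPM in the knockout (log2 fold change -0.94 ± 0.0891 SE, adjusted p = 8.07e-07), and Spi1, which encodes PU.1, at 321 and 386 CPM in wild type and at 173 and 186 CPM in the knockout (log2 fold change -0.98 ± 0.0929 SE, adjusted p = 8.34e-07). PU.1 and Gata1 are known to oppose each other, and here Spi1 was lower and Gata1 higher. Gfi1, a repressor of the monocyte fate, was lower as well (-0.64). Myb, a progenitor factor, was higher (548 and 489 to 645 and 633 CPM, log2 fold change 0.30 ± 0.0724 SE, adjusted p = 0.00373), and Myc stood at 401 and 385 CPM in wild type and at 403 and 408 CPM in the knockout (adjusted p = 0.686).

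Cytokine receptors of the myeloid path were lower in 8 of 13 cases and higher in 0 (median -0.39). Csf2rb, the shared beta chain of the IL-3, IL-5 and GM-CSF receptors, stood at 197 and 209.5 CPM in wild type and at 118 and 115 CPM in the knockout (log2 fold change -0.80 ± 0.089 SE, adjusted p = 4.34e-06). Csf3r, the G-CSF receptor, stood at 255 and 252 CPM in wild type and at 199.9 and 200.3 CPM in the knockout (log2 fold change -0.34 ± 0.0725 SE, adjusted p = 0.00147). Only 3 of the 13 were lower with total count scaling or the GC correction, under which Csf3r lost its call, and 5 without knockout replicate 1.

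Genes linked to myeloid-derived suppressor cells, the cells named in the series title, were lower in 14 of 24 cases and higher in 1 (median -0.57), and 12 to 15 were lower over the alternatives. Trem1, a receptor that amplifies inflammation, stood at 43.5 and 42.5 CPM in wild type and at 14.9 and 15.1 CPM in the knockout (log2 fold change -1.52 ± 0.0783 SE, adjusted p = 1.37e-09). Il4ra, the IL-4 receptor chain used as a suppressor marker, stood at 65.7 and 70.5 CPM in wild type and at 33.9 and 36.3 CPM in the knockout (log2 fold change -0.96 ± 0.0835 SE, adjusted p = 3.57e-07), and Tgfb1, the suppressive cytokine, at 572 and 623 CPM in wild type and at 358 and 378 CPM in the knockout (log2 fold change -0.70 ± 0.0806 SE, adjusted p = 6.47e-06). The surface markers that define these cells in the mouse were lower: Itgam, which is CD11b, went from 57 and 71.3 to 27.8 and 30.1 CPM (log2 fold change -1.15 ± 0.108 SE, adjusted p = 7.9e-07), and Ly6g from 21.3 and 31.9 to 8.73 and 9.35 CPM (log2 fold change -1.56 ± 0.155 SE, adjusted p = 1.37e-06). Mature neutrophils carry both markers too. Effector genes were nearly silent. Arg1 stood at 0.165 and 0.0941 CPM in wild type and at 0.626 and 0.444 CPM in the knockout, Nos2 at 0 CPM in both wild type libraries and 0.0432 and 0.0423 CPM in the knockout (adjusted p = 0.0812), and Il10 at 0 and 0.047 CPM in wild type and at 0 and 0.106 CPM in the knockout (adjusted p = 0.558). Arg1 was the 1 member called higher (adjusted p = 0.0307), and this call ended without either wild type library or without knockout replicate 1. Cd84, another proposed marker, stood at 48.3 and 42.2 CPM in wild type and at 38.8 and 38.5 CPM in the knockout (adjusted p = 0.0636).

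Eosinophil genes had the lowest median of all lineage lists, -2.37, with 8 of 10 lower and 0 higher. Prg2, the major basic protein (chromosome 2, 84980461 to 84983632), was measured at 455 and 465 CPM in the wild type libraries and 76.7 and 87.1 CPM in the knockout libraries (log2 fold change -2.49 ± 0.0974 SE, adjusted p = 1.18e-10). Epx, the eosinophil peroxidase (chromosome 11, 87864000 to 87875536), was measured at 376 and 271 CPM in wild type and at 58.3 and 59.2 CPM in the knockout (log2 fold change -2.46 ± 0.116 SE, adjusted p = 5.33e-10). Ear1, Ear2 and Ear6, ribonucleases of the eosinophil granule, were lower, with log2 fold changes of -3.34, -2.29 and -3.01, and because these copies are closely alike, reads may have been split between them. Alox15, a lipoxygenase, went from 11.3 and 6.84 to 0.907 and 1.59 CPM (log2 fold change -2.86 ± 0.227 SE, adjusted p = 1.34e-07), and the surface lectin Siglecf from 44.2 and 37.8 to 21.6 and 21.2 CPM (log2 fold change -0.94 ± 0.0974 SE, adjusted p = 2.16e-06). In wild type, Epx, Ear1, Ear6 and Alox15 were higher in replicate 1 than in replicate 2. The receptor genes Il5ra and Ccr3, which mark mature eosinophils, were at most 2.31 and 0.843 CPM in any of the 4 libraries and were not called.

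Mast cell and basophil genes, which share granule machinery with eosinophils, were mixed: 4 of 13 were higher and 3 lower (median 0.11). Il1rl1, the IL-33 receptor, went from 23.6 and 21.7 to 53 and 52.4 CPM (2.33-fold higher, adjusted p = 1.65e-07), while Hdc, which makes histamine, went from 247 and 257 to 93.4 and 102 CPM (log2 fold change -1.37 ± 0.0718 SE, adjusted p = 1.67e-09). Gata2, a factor of mast cells and of stem cells, stood at 156 and 159 CPM in wild type and at 167 and 172 CPM in the knockout (adjusted p = 0.243), the granule protease Cpa3 at 71.3 and 58.1 CPM in wild type and at 68.9 and 64.5 CPM in the knockout (adjusted p = 0.816), and Mcpt8, a basophil protease, at 51.1 and 49.6 CPM in wild type and at 46.9 and 48.6 CPM in the knockout (adjusted p = 0.617). Without wild type replicate 2, or without either knockout library, 1 gene of this list was lower.

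Among 19 monocyte and macrophage genes 3 were higher and 7 lower (median 0.01). Ly6c2, the marker of inflammatory monocytes, stood at 1209 and 1206 CPM in wild type and at 712 and 602 CPM in the knockout (log2 fold change -0.88 ± 0.102 SE, adjusted p = 6.44e-06), and Vcam1 at 122 and 119.6 CPM in wild type and at 72.5 and 68 CPM in the knockout (log2 fold change -0.78 ± 0.0791 SE, adjusted p = 1.62e-06). Irf8, the factor that directs progenitors to monocytes and dendritic cells, stood at 279 and 307 CPM in wild type and at 239.5 and 249 CPM in the knockout (log2 fold change -0.26 ± 0.0729 SE, adjusted p = 0.00981), a call that ended under 6 of the 13 alternatives. F13a1 stood at 340.2 and 325 CPM in wild type and at 368 and 367 CPM in the knockout (adjusted p = 0.104). Without wild type replicate 2 the list had 0 higher and 4 lower, and likewise 0 and 4 without knockout replicate 1.

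Dendritic cell genes included 6 of 16 that were higher and 1 lower (median 0.12). Zbtb46, a factor of classical dendritic cells that red cell progenitors are also known to express, went from 5.2 and 5.03 to 15.5 and 16.5 CPM (log2 fold change 1.65 ± 0.214 SE, adjusted p = 2.1e-05). Xcr1, a chemokine receptor of the cross-presenting subset, was low in both groups (0.541 and 0.706 to 2.66 and 2.41 CPM, log2 fold change 2.02 ± 0.407 SE, adjusted p = 0.00102). The class II gene H2-Aa stood at 54.3 and 66.1 CPM in wild type and at 65.7 and 68.8 CPM in the knockout (adjusted p = 0.24), and the class II chaperone Cd74 at 133 and 143 CPM in wild type and at 135 and 142 CPM in the knockout (adjusted p = 0.954). Without wild type replicate 1 the higher genes numbered 3, and with total count scaling 10.

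Of 18 B lymphoid genes 2 were higher and 8 lower (median -0.33), and 3 to 9 were lower over the alternatives, with 3 without wild type replicate 2 and 4 without either knockout library. Dntt, the enzyme that adds bases at antigen receptor joints, stood at 68.1 and 74.6 CPM in wild type and at 36.9 and 36.8 CPM in the knockout (log2 fold change -0.95 ± 0.101 SE, adjusted p = 2.8e-06), and Cd79b at 41.4 and 40.6 CPM in wild type and at 22.9 and 21.2 CPM in the knockout (log2 fold change -0.89 ± 0.111 SE, adjusted p = 1.33e-05). Il7r, the IL-7 receptor of early lymphocytes, went the other way (3.1 and 3.22 to 7.02 and 6.45 CPM, log2 fold change 1.09 ± 0.143 SE, adjusted p = 2.25e-05). Of 18 T and NK cell genes 1 was higher and 3 lower, and their summed level was 24.3 to 28.4 CPM in each of the 4 libraries. Gzmb, a granzyme, was the higher one (3.39 and 4 to 12.1 and 11.3 CPM). Of 11 endothelial and stromal genes 0 were higher and 2 lower. Their summed level was 48.9 and 44.7 CPM in wild type, against 28.3 and 27.9 CPM in the knockout. Most of it came from Pdgfrb, a growth factor receptor (39.3 and 36.2 to 22.9 and 21.9 CPM, log2 fold change -0.75 ± 0.145 SE, adjusted p = 0.000719). The stromal cytokine Cxcl12 was at most 0.691 CPM in any of the 4 libraries.

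RNA processing genes were higher in part. Splicing kinases, which phosphorylate SR proteins, were higher in 7 of 9 cases and lower in 0, with a median of 0.75. Their summed level was 671 and 626 CPM in wild type and 1080 and 1034 CPM in the knockout. It was 996 to 1119 CPM with mutated Srsf2 and 1140 to 1170 CPM with both lesions, so wild type was again the lowest. Clk1 stood at 74.9 and 58.8 CPM in the wild type libraries and 181 and 167 CPM in the knockout libraries (log2 fold change 1.38 ± 0.0977 SE, adjusted p = 3.83e-08) and Clk4 at 34 and 30.5 CPM in wild type and at 93.7 and 86.2 CPM in the knockout (log2 fold change 1.48 ± 0.084 SE, adjusted p = 4.03e-09). Prpf4b, a kinase of the spliceosome, went from 136 and 120.4 to 265 and 242 CPM (log2 fold change 0.98 ± 0.0954 SE, adjusted p = 1.08e-06), and Srpk1, which sends SR proteins into the nucleus, from 129.5 and 124 to 205 and 208 CPM (log2 fold change 0.70 ± 0.0735 SE, adjusted p = 2.4e-06). Dyrk1a stood at 111 and 111 CPM in wild type and at 101 and 102 CPM in the knockout (adjusted p = 0.278).

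Of 16 SR protein genes 9 were higher and 1 lower (median 0.37, 14 higher with total count scaling). Summed over this list, expression was 4523 and 4237 CPM in wild type and 5861 and 5621 CPM in the knockout. It was 5564 to 5991 CPM with mutated Srsf2 and 5827 to 5949 CPM with both lesions. Srsf5 stood at 154 and 157 CPM in wild type and at 341 and 341 CPM in the knockout (log2 fold change 1.13 ± 0.0725 SE, adjusted p = 1.3e-08), and Srsf11 at 203 and 191 CPM in wild type and at 326 and 294 CPM in the knockout (log2 fold change 0.66 ± 0.0785 SE, adjusted p = 9.12e-06). Srsf2, the partner gene of the study, stood at 282 and 244 CPM in wild type and at 322 and 325 CPM in the knockout (log2 fold change 0.30 ± 0.0805 SE, adjusted p = 0.00856), a call that ended without wild type replicate 2. Srsf1, the best known member, stood at 506 and 467 CPM in wild type and at 532 and 518 CPM in the knockout (adjusted p = 0.27). Of 23 hnRNP genes, which bind nascent RNA, 10 were higher and 2 lower (median 0.18, 6 higher with the GC correction). The sum over these genes was 9266 and 9785 CPM in wild type and 10660 and 10814 CPM in the knockout. It was 12331 to 13072 CPM with mutated Srsf2 and 11175 to 11570 CPM with both lesions. Hnrnph1 stood at 292 and 304 CPM in wild type and at 799.9 and 754 CPM in the knockout (log2 fold change 1.38 ± 0.0709 SE, adjusted p = 1.29e-09), and Ptbp2, the neural splicing repressor, at 15.4 and 12.8 CPM in wild type and at 62.2 and 52.5 CPM in the knockout (log2 fold change 2.03 ± 0.146 SE, adjusted p = 4.76e-08). The 40 core spliceosome genes were split, with 13 higher and 12 lower and a median of -0.08, and the lower genes numbered 2 with total count scaling and 3 without knockout replicate 1. On the log2 scale, Rbm25 (0.85), Rbm39 (0.63) and Zrsr2 (0.69) were among the higher, and Sf3b6 (-0.47) and Sf3a1 (-0.36), parts of the U2 particle, among the lower, the last not with total count scaling or the GC correction.

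Long RNAs that stay in the nucleus had a median log2 fold change of 2.09, with 10 of 11 higher and 0 lower. Their summed level was 190 and 205 CPM in wild type and 1082 and 1090 CPM in the knockout. It was 805 to 1170.5 CPM with mutated Srsf2 and 1310 to 1401 CPM with both lesions, so wild type was the lowest of all 10 libraries. The part that Setd2 loss had in this difference was not tested. Malat1 (chromosome 19, 5795690 to 5802672), a component of nuclear speckles, stood at 52 and 77.9 CPM in the wild type libraries and 751 and 758 CPM in the knockout libraries (log2 fold change 3.54 ± 0.2 SE, adjusted p = 3.76e-09). Neat1, the scaffold of paraspeckles, stood at 9.67 and 12.6 CPM in wild type and at 104 and 115 CPM in the knockout (log2 fold change 3.29 ± 0.115 SE, adjusted p = 3.2e-11). Kcnq1ot1, an imprinted antisense RNA, went from 3.55 and 3.58 to 23 and 22.9 CPM (log2 fold change 2.69 ± 0.241 SE, adjusted p = 4.72e-07), and Mir17hg, the precursor of the miR-17 to miR-92 cluster, from 3.36 and 2.89 to 21.6 and 23.2 CPM (log2 fold change 2.84 ± 0.127 SE, adjusted p = 3.46e-10). The X-linked RNAs Ftx and Jpx, neighbours of Xist, were higher 3.99-fold and 2-fold, opposite to Xist. Hosts of small nucleolar RNAs (snoRNAs) were higher in 9 of 14 cases and lower in 1 (median 0.62), with Gas5 at 95.2 and 96.9 CPM in wild type and at 166 and 199 CPM in the knockout (log2 fold change 0.93 ± 0.0943 SE, adjusted p = 1.77e-06) and Snhg5 at 39.1 and 32 CPM in wild type and at 82.1 and 84.6 CPM in the knockout (log2 fold change 1.23 ± 0.1 SE, adjusted p = 1.79e-07). The labels name these as messenger RNA libraries, and the way that RNA was selected is not given in the sources used here.

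The same direction held for genes that lie inside the introns of others. In the GENCODE annotation the class TEC holds transcribed stretches that await experimental study, many of them within introns. TEC genes inside introns took 0.011% and 0.0127% of all counts in wild type, and 0.0622% and 0.0566% in the knockout. Those between protein-coding genes took 0.0104% and 0.00992%, and 0.0201% and 0.0189%. Antisense genes took 0.0708% and 0.0723%, and 0.135% and 0.13%. Processed pseudogenes inside introns, which are copies of messenger RNA, took 0.145% and 0.155%, and 0.149% and 0.158%. Of these 4 classes the intronic TEC genes had the largest ratio, and in the intronic pseudogenes the groups overlapped. In the 6 other bulk libraries the intronic TEC genes took 0.0437% to 0.0788%, so the wild type libraries were the lowest of all 10.

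**Figure D3:**
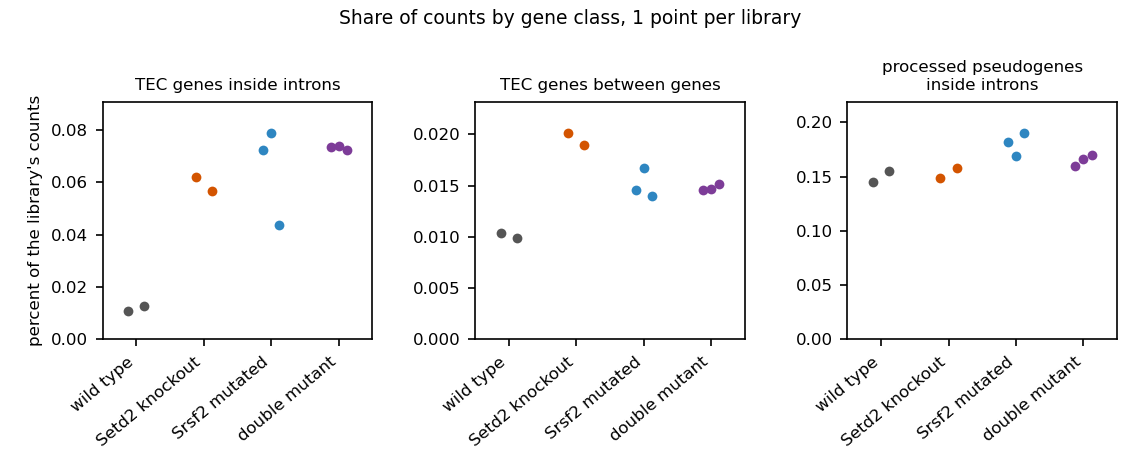
Percent of each library's counts in 3 gene classes, 1 point per library, for the 4 genotypes of the bulk libraries. Wild type libraries are lowest for TEC genes inside introns (0.011 and 0.0127, against 0.0622 and 0.0566 in the knockout) and between genes, while wild type and knockout overlap for processed pseudogenes inside introns.

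Counts of such genes followed the way they were chosen, and they are given both ways as a description. Chosen by a mean of at least 0.5 CPM in the 6 libraries outside the comparison, 198 of 267 TEC genes inside introns were higher and 1 lower (median 2.63), and 27 of 78 between protein-coding genes were higher and 0 lower (median 0.89). Of all 15265 genes so chosen 20.8% were higher and 25% lower, and of the fifth of lowest CPM in the 4 libraries compared 29.1% were higher and 3.21% lower (median 0.77). Of these 6 libraries, 3 carry the Setd2 knockout too and all lie above wild type for intronic TEC genes, so this choice favours genes low in wild type. Chosen instead by the same mean in the 2 wild type libraries, which favours genes high there, 20 of 43 intronic TEC genes were higher and 0 lower (median 1.19), and 9 of 37 between genes were higher and 0 lower (median 0.49). Of all 13478 genes chosen in this way 16.9% were higher and 28.3% lower. Small RNA genes inside introns, snoRNAs for the most part, were higher in 57 of 96 cases by the first choice and in 7 of 15 by the second, and lower in 0 by either. Over all noncoding genes and pseudogenes inside introns the median was 1.90 by the first choice and 0.02 by the second, with 396 of 767 and 48 of 278 higher and 25 and 24 lower. The last result thus rests on the choice of genes. The choice on wild type was added after seeing the data.

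Calls of embedded genes and of their hosts were set side by side. Of 708 embedded genes chosen on the 6 other libraries and with a tested host, 389 were called higher, and of these 100 had a host called higher, 95 a host called lower and 194 a host not called. Of all 15265 genes chosen on those libraries 20.8% were higher and 25% lower. As stated above, this choice favours genes low in wild type. A930004J17Rik, a TEC gene in Srsf4, went from 3.29 and 3.06 to 21.4 and 18.1 CPM (log2 fold change 2.64 ± 0.372 SE, adjusted p = 4.59e-05), while Srsf4 stood at 47.7 and 45.5 CPM in wild type and at 48.9 and 52.1 CPM in the knockout (adjusted p = 0.46). Gm47260, inside the helicase gene Ddx24, went from 0.776 and 1.01 to 5.83 and 5.75 CPM, with Ddx24 at 168 and 159 CPM in wild type and at 161 and 163 CPM in the knockout (adjusted p = 0.877). Gm43300, inside Ptbp2, went from 0.376 and 0.8 to 10.7 and 9.61 CPM, and in this case the host was higher too. These are among the 5 TEC genes of highest level in the 6 other libraries, named after their values were seen. Since the strand of the libraries is not given in the sources used here, reads of an embedded gene, of its host's unspliced RNA and of antisense RNA cannot be told apart.

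GC content ran along with the size of the change. Among protein-coding genes chosen on the 6 other libraries, the fifth of lowest GC content in the longest transcript had a median log2 fold change of 0.13, with 747 of 2511 higher and 310 lower. The fifth of highest GC content had a median of -0.25, with 312 of 2510 higher and 986 lower. Between these the medians fell in order. With offsets that remove this relation within each library, 6789 genes were called, 4018 higher and 2771 lower. Its part in the results was not tested further, and calls of named genes that ended under the correction are given beside them.

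**Figure D4:**
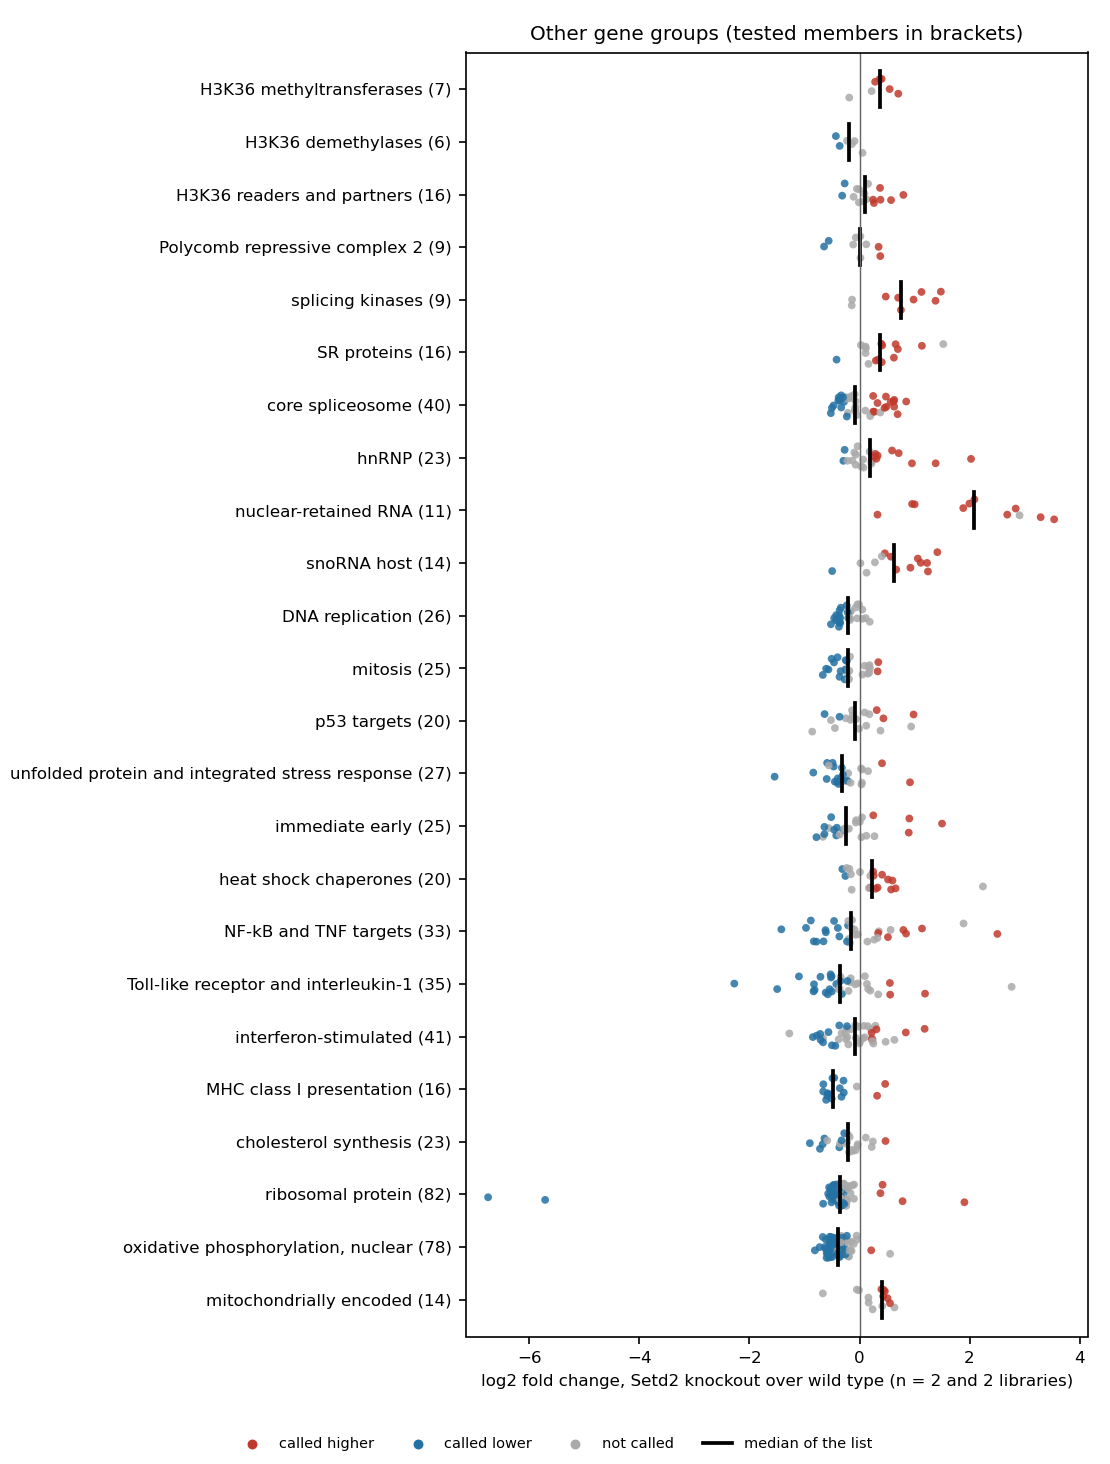
Log2 fold change of each tested member of 24 lists outside the lineages, knockout over wild type, with red for genes called higher, blue for lower, grey for not called and a black bar at the median. Nuclear RNAs, snoRNA hosts and splicing kinases lie to the right, and ribosomal protein and oxidative phosphorylation genes form narrow clouds just left of 0, apart from Rpl29 and Rpl39l below -5.

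Cell cycle genes were slightly lower. Of 26 DNA replication genes 0 were higher and 14 lower (median -0.21), among them Mcm5, a subunit of the replicative helicase, at 619 and 672 CPM in wild type and at 450.0 and 451 CPM in the knockout (log2 fold change -0.52 ± 0.0693 SE, adjusted p = 2.66e-05). Pcna stood at 426 and 419 CPM in wild type and at 376 and 375 CPM in the knockout (adjusted p = 0.112). Of 25 mitosis genes 2 were higher and 12 lower (median -0.22): the kinase Plk1 went from 123 and 132 to 77.2 and 83.1 CPM (log2 fold change -0.67 ± 0.086 SE, adjusted p = 1.94e-05) and Cdc20, an activator of the anaphase complex, from 192 and 199 to 125 and 139 CPM (log2 fold change -0.56 ± 0.0801 SE, adjusted p = 4.8e-05), while Cenpf, a kinetochore protein, was higher (0.34). With total count scaling 3 replication and 5 mitosis genes were lower and both medians were just above 0, and without knockout replicate 1 the replication genes numbered 8. Of 20 p53 targets 3 were higher and 2 lower, smaller shares than the 16.4% and 25.9% of all protein-coding genes. Mdm2 stood at 59.7 and 57 CPM in wild type and at 79.5 and 78.3 CPM in the knockout (log2 fold change 0.43 ± 0.0733 SE, adjusted p = 0.000234) and the cell cycle inhibitor Cdkn1a at 16.8 and 13.7 CPM in wild type and at 8.88 and 10.7 CPM in the knockout (log2 fold change -0.64 ± 0.128 SE, adjusted p = 0.001).

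Stress genes differed by branch. Of 27 genes of the unfolded protein and integrated stress responses 2 were higher and 15 lower (median -0.32, 8 lower with total count scaling). Xbp1, the transcription factor of the endoplasmic reticulum branch, stood at 309 and 299.9 CPM in wild type and at 221 and 219 CPM in the knockout (log2 fold change -0.47 ± 0.0701 SE, adjusted p = 7.77e-05), and Calr, a chaperone of that compartment, at 2716 and 2676 CPM in wild type and at 1929.5 and 2021 CPM in the knockout (log2 fold change -0.45 ± 0.0665 SE, adjusted p = 7.28e-05). Asns, which makes asparagine and is a target of the amino acid branch, was higher (62.6 and 57.1 to 112 and 114 CPM, log2 fold change 0.92 ± 0.0846 SE, adjusted p = 6.32e-07). Hspa5 stood at 1628 and 1353 CPM in wild type and at 1292 and 1299.9 CPM in the knockout (adjusted p = 0.071). Of 20 heat shock chaperone genes 10 were higher and 2 lower (median 0.22), with Hsph1 at 155 and 137 CPM in wild type and at 219 and 215 CPM in the knockout (log2 fold change 0.57 ± 0.081 SE, adjusted p = 4.58e-05) and mitochondrial Hspd1 at 473 and 466 CPM in wild type and at 653 and 692 CPM in the knockout (log2 fold change 0.52 ± 0.0766 SE, adjusted p = 7.11e-05). The count of 10 became 5 without wild type replicate 2 and 3 without knockout replicate 1.

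Immediate early genes could not be read as a group, because the wild type libraries differed. Their summed level was 5146 and 3329 CPM in wild type, against 3772 and 3913 CPM in the knockout, so the knockout lay between the wild type libraries. Of 25 members 4 were higher and 8 lower. Without wild type replicate 1 the counts were 9 and 4, and without wild type replicate 2 they were 3 and 16. Without knockout replicate 1 they were 3 and 3, and without knockout replicate 2 they were 3 and 4. Jun stood at 879.6 and 539 CPM in wild type and at 684 and 739.9 CPM in the knockout (adjusted p = 0.987). Fosb, a partner of Jun, stood outside this pattern, with both knockout libraries above both wild type libraries (172 and 84.6 to 358 and 367 CPM, 2.83-fold higher, adjusted p = 2.57e-05).

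Inflammatory signaling, the other subject of the series title, was lower in more members than higher. The same held for all protein-coding genes, of which 16.4% were higher and 25.9% lower. Of 35 genes of Toll-like receptor and interleukin-1 signaling, 3 were higher and 18 lower (median -0.35), the lower genes numbering 11 without knockout replicate 2 and 10 with total count scaling. The IL-1 decoy receptor Il1r2 stood at 13.4 and 13.1 CPM in wild type and at 4.73 and 4.66 CPM in the knockout (2.82-fold lower, adjusted p = 8.25e-09), the receptor antagonist Il1rn at 3.79 and 4.52 CPM in wild type and at 0.756 and 0.952 CPM in the knockout (log2 fold change -2.28 ± 0.192 SE, adjusted p = 2.47e-07), and the inhibitory kinase Irak3 at 72.3 and 64.6 CPM in wild type and at 39.7 and 38.1 CPM in the knockout (log2 fold change -0.82 ± 0.0961 SE, adjusted p = 7.8e-06). These 3 restrain the pathway. Myd88, the adaptor that carries its signal, was lower too (64.3 and 63.8 to 39.6 and 44 CPM, log2 fold change -0.61 ± 0.0821 SE, adjusted p = 2.69e-05). Nlrp3, the inflammasome sensor, was higher (4.47 and 4.66 to 6.74 and 6.69 CPM, log2 fold change 0.56 ± 0.114 SE, adjusted p = 0.00116), and Il1b stood at 2.16 and 1.65 CPM in wild type and at 1.94 and 2.26 CPM in the knockout.

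Of 33 targets of NF-kB and TNF, 6 were higher and 13 lower (median -0.15, 8 lower with total count scaling). Relb (5.67 and 5.67 to 3.11 and 3.26 CPM, log2 fold change -0.83 ± 0.122 SE, adjusted p = 6.41e-05), Nfkb1 (272 and 262 to 205 and 201 CPM, log2 fold change -0.39 ± 0.071 SE, adjusted p = 0.000416, not with total count scaling) and Tnf (12.1 and 12 to 7.93 and 7.83 CPM, log2 fold change -0.61 ± 0.0975 SE, adjusted p = 0.000142) were lower. Il6 was higher at a low level (0.306 and 0.141 to 1.23 and 1.33 CPM, log2 fold change 2.51 ± 0.292 SE, adjusted p = 6.61e-06). Nfkbia, the feedback inhibitor, stood at 146 and 95.2 CPM in wild type and at 103 and 107 CPM in the knockout (adjusted p = 0.254), with the wild type libraries apart. Among 41 interferon-stimulated genes 5 were higher and 10 lower (median -0.08). Neither share exceeded that of all protein-coding genes (16.4% higher and 25.9% lower). Ifitm3 stood at 109 and 108 CPM in wild type and at 65.4 and 71.7 CPM in the knockout (log2 fold change -0.66 ± 0.0947 SE, adjusted p = 5.19e-05) and Mx1 at 1.95 and 2.75 CPM in wild type and at 5.51 and 5.18 CPM in the knockout (log2 fold change 1.18 ± 0.2 SE, adjusted p = 0.000241). The higher genes numbered 2 without wild type replicate 2 or without knockout replicate 1, and the lower genes 6 without the latter. Of 16 genes of antigen presentation by MHC class I, 2 were higher and 13 lower (median -0.48, 7 lower with total count scaling, 0 higher without wild type replicate 1). H2-K1 stood at 1469.6 and 1512 CPM in wild type and at 984 and 1038 CPM in the knockout (log2 fold change -0.56 ± 0.0763 SE, adjusted p = 3.25e-05) and Tapbp, which loads peptides, at 202 and 225 CPM in wild type and at 134 and 147 CPM in the knockout (log2 fold change -0.61 ± 0.0957 SE, adjusted p = 0.000129). The class I genes of this locus are alike in sequence, so reads may be shared among them.

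Ribosomal protein and respiratory chain genes were lower by small amounts, and their counts followed the scaling. Of 82 ribosomal protein genes 4 were higher and 52 lower (median -0.35), and the lower genes numbered 10 with total count scaling. Of 78 nuclear genes of oxidative phosphorylation 1 was higher and 55 lower (median -0.40, 17 lower with total count scaling), with Uqcrc1 of complex III at 493 and 484 CPM in wild type and at 322 and 331 CPM in the knockout (log2 fold change -0.58 ± 0.0852 SE, adjusted p = 6.44e-05). Without wild type replicate 2 the lower genes numbered 31 and 29 in these lists, and without knockout replicate 1 they numbered 13 and 18. The genes of the mitochondrial genome went the other way, with 6 of 14 higher and 0 lower (median 0.41), but only 1 was higher without wild type replicate 2 and 2 without knockout replicate 1. With the GC correction 2 were higher and 1 lower (median 0.18). mt-Co1 stood at 6751 and 5312 CPM in wild type and at 8439.6 and 7461 CPM in the knockout (log2 fold change 0.40 ± 0.107 SE, adjusted p = 0.00778) and lost its call without each of these libraries. Of 23 cholesterol synthesis genes 1 was higher and 7 lower, beside 16.4% and 25.9% of all protein-coding genes. Among the lower was Srebf2, the factor that drives the pathway (266 and 268 to 168 and 168 CPM, log2 fold change -0.67 ± 0.0724 SE, adjusted p = 3.28e-06). Without wild type replicate 1, or without either knockout library, the lower genes numbered 4.

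Around Setd2 on chromosome 9, single genes had large changes. Within 20 Mb before the gene, 20.4% of 186 genes chosen on the 6 other libraries were called at 2-fold or more, and within 20 Mb after it 15.5% of 116, against 13.6% of all genes so chosen and 15.1% of those on chromosome 9. Elsewhere on that chromosome the share reached 17.7%, in the 20 Mb that begin 80 Mb before Setd2, and on chromosomes 6 and 12 it was 18.6% and 18.9%. In bins of 10 Mb the highest share on the chromosome was 22.4%, in the bin that begins 40 Mb before Setd2. In the 10 Mb just before Setd2 it was 20.4%. Of the 6 other libraries, 3 carry the Setd2 knockout too. This choice may therefore favour genes near Setd2 that are higher with that lesion, and with them the shares near Setd2. The differences between these shares were not tested. Mst1r, a receptor tyrosine kinase 2.63 Mb before Setd2 (chromosome 9, 107906873 to 107920383), was measured at 0.8 and 0.659 CPM in the wild type libraries and 39 and 37.9 CPM in the knockout libraries (log2 fold change 5.71 ± 0.236 SE, adjusted p = 1.57e-10). Rpl29, a ribosomal protein gene 4.10 Mb before it (chromosome 9, 106429454 to 106431568), was measured at 630.2 and 669 CPM in wild type and at 10.1 and 14.6 CPM in the knockout (log2 fold change -5.71 ± 0.163 SE, adjusted p = 2.51e-12), and reads of its pseudogenes may be shared with it. The chemokine receptor genes Ccr1 and Ccr2 lie 13.4 and 13.6 Mb after Setd2. Ccr1 stood at 9.13 and 9.29 CPM in wild type and at 101 and 94.9 CPM in the knockout (log2 fold change 3.41 ± 0.0947 SE, adjusted p = 2.51e-12), and Ccr2, by which monocytes leave the marrow, at 67.4 and 62.7 CPM in wild type and at 418 and 384 CPM in the knockout (log2 fold change 2.62 ± 0.0798 SE, adjusted p = 5.12e-12). Ccr2 was thus higher where the monocyte marker Ly6c2 was lower.

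Other genes of this region were Paqr9 (9.6 and 11.1 to 75.7 and 72.9 CPM) and the receptor-like kinase Ryk (2.94 and 1.95 to 18.3 and 16.9 CPM), both higher, and Acpp, an acid phosphatase, which was lower (22.2 and 28.1 to 3.69 and 3.49 CPM, log2 fold change -2.81 ± 0.127 SE, adjusted p = 3.82e-10). Mapkapk3, a kinase below p38, was lower as well (376 and 401 to 160.3 and 164 CPM, log2 fold change -1.26 ± 0.0753 SE, adjusted p = 6.38e-09). Ngp, Camp and Ltf, described above with the neutrophil granules, also lie here.

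**Figure D5:**
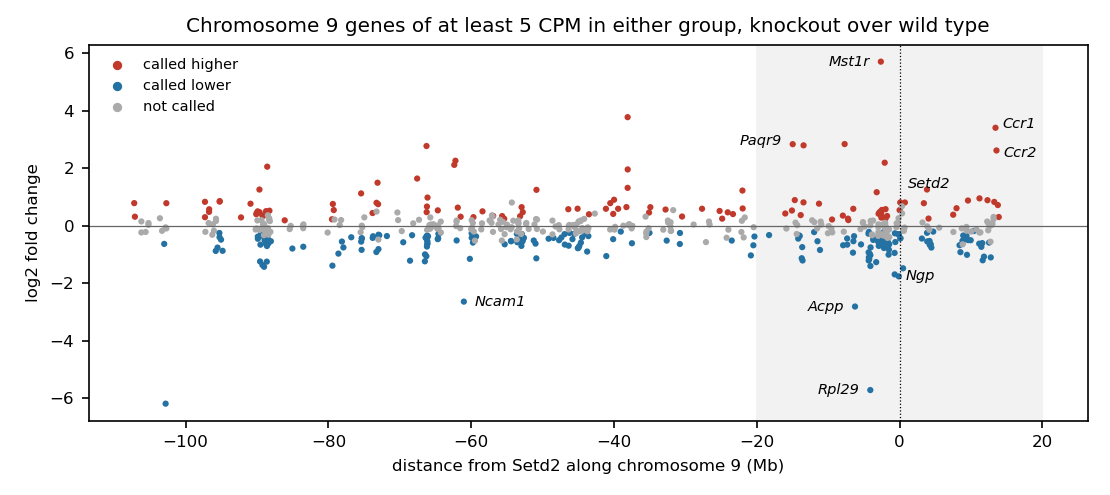
Log2 fold change of 568 chromosome 9 genes of at least 5 CPM in either group against their distance from Setd2 in Mb, with red for genes called higher, blue for lower and grey for not called, and a shaded band within 20 Mb of Setd2. Mst1r (5.71) and Rpl29 (-5.71) stand furthest from 0 in the band, and Gm10709, a processed pseudogene 102.8 Mb before Setd2, is the lowest point of all.

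On the rest of the genome the largest changes named genes of several kinds. Pkhd1l1, a large membrane protein, stood at 0.941 and 0.588 CPM in wild type and at 19.4 and 17.5 CPM in the knockout (log2 fold change 4.59 ± 0.205 SE, adjusted p = 3.45e-10). Kel, given above, was among the 15 of largest fold on the higher side, as were Tmem56 and Btnl10, which rose 10.2-fold and 8.73-fold. Sec14l2, a lipid-binding protein, went from 2.05 and 2.19 to 14.9 and 16 CPM (log2 fold change 2.87 ± 0.166 SE, adjusted p = 4.67e-09). At the lower end, after Xist, stood Ces1d, a carboxylesterase (16.4 and 20.1 to 1.25 and 1.44 CPM, log2 fold change -3.76 ± 0.237 SE, adjusted p = 1.14e-08), and Chit1, a chitinase of phagocytes (11.5 and 14.3 to 1.04 and 1.02 CPM, log2 fold change -3.65 ± 0.334 SE, adjusted p = 5.79e-07). The eosinophil genes Ear1, Ear6, Prg2, Epx, Ear2 and Prg3 were also among the 15 of largest fold on this side. Ncam1, an adhesion molecule, went from 34.6 and 34.6 to 5.64 and 5.48 CPM (log2 fold change -2.64 ± 0.228 SE, adjusted p = 3.31e-07), and Serpinf1, a secreted serpin, from 34.6 and 30.3 to 5.92 and 4.74 CPM (log2 fold change -2.60 ± 0.15 SE, adjusted p = 4.62e-09).

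Of the 10 largest differences in CPM on the lower side, 8 were neutrophil products. Of the calcium-binding pair, S100a8 went from 3589 and 4369 to 1136 and 1242 CPM and S100a9 from 3995 and 5234 to 1302 and 1542 CPM. Actb, the beta actin gene often used as a reference, was lower (3338 and 3930.2 to 2002 and 2117 CPM, log2 fold change -0.82 ± 0.0876 SE, adjusted p = 2.96e-06), as was the elongation factor Eef2 (5485 and 5618 to 3877 and 3950.4 CPM, log2 fold change -0.50 ± 0.0624 SE, adjusted p = 1.29e-05). On the higher side stood mt-Co1, Malat1, Car2 and Hnrnph1, given above, the helicase Ddx5 (861 and 831 to 1195 and 1199 CPM, log2 fold change 0.50 ± 0.065 SE, adjusted p = 2.09e-05) and Srrm2, a scaffold of nuclear speckles (576 and 551 to 948 and 878 CPM, log2 fold change 0.70 ± 0.17 SE, adjusted p = 0.00419).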

How the data were processed

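Bulk RNA-seq of 10 mouse libraries was used: 2 wild type, 2 Setd2 knockout, 3 Srsf2 mutated and 3 with both lesions. The authors deposited gene counts, with 55421 genes per table. The deposited tables also hold FPKM values and gene lengths, and per the file headers and values FPKM equals count over length and library total. The deposited fold changes and p-values were not used. The submitters' processing notes list HISAT2 2.0.5 and STAR 2.6.1a, featureCounts 2.0.1 and HTSeq 0.9.1, SAMtools 1.7, Seurat 3.2.0 and DESeq2 1.22.2, with GRCm38 for mouse. Which of them made the bulk counts is not given in the sources used here. The 5 libraries present in 2 tables had identical counts, and 27 symbols turned into dates were restored from their identifiers. Libraries held 32117387 to 50445434 counts.

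From the counts, genes passing filterByExpr in edgeR 4.0.16 (R 4.3.3) were TMM-scaled and fitted with the quasi-likelihood model, 1 term per group over all 10 libraries, which share its estimate of the spread. Adjusted p under 0.05 was a call. GENCODE M21 gave positions for 19268 of the 19289 tested genes. The fit was also run on simulated counts with known changes, whose levels and spread were taken from these data. Alternatives were 3 other scalings, 2 other filters, a fit of the 2 groups alone, the replicate block, DESeq2 1.42.0, each library left out and, chosen after seeing the data, a GC correction in 20 bins and a choice of gene classes on wild type levels. Replicate numbers do not pair the samples.

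The members and gene lists were chosen with earlier results of these data known, so no list was tested. Named from each list were up to 5 members of smallest adjusted p in its leading direction, 2 in the other, and the uncalled member of highest CPM. Also named were genes of largest fold (at least 10 CPM) near Setd2 and elsewhere, and of largest difference. Named after their values were seen were Cd34, Flt3, Cd3e, Col1a1, Cxcl12, the X-linked and embedded genes with their hosts, Tal1, Ldb1, Slc4a1, Pf4, Lcn2, Nos2, Il10, Il1b, Alox15, Siglecf, Il5ra, Ccr3, Cpa3, Mcpt8, H2-Aa and Kcnq1ot1. The uncalled megakaryocyte genes other than Vwf were named in this way too. The symbols Ahsp, Whsc1, Whsc1l1, Snhg7 and Cyr61 were not analysed here, and some genes that the rule names are not reported here.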

Additional observations from a re-analysis of the deposited data

How the results depend on the processing

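No gene called in both reversed its direction under any of the 13 alternatives. Total count scaling gave 5449 higher and 1974 lower genes, 294 of them lower at 2-fold. The stricter filter, which tested fewer genes, gave 508 higher and 240 lower at 2-fold, and the GC correction 349 lower at 2-fold. Leaving out 1 library gave 4792 to 5926 called genes, 2392 to 2698 higher and 2400 to 3228 lower, the lowest each time without knockout replicate 1, and 1379 to 1523 higher and 407 to 567 lower at 2-fold. The lone library left in a group is then assumed to vary like the others. Samples with the same replicate number did not deviate together (correlation -0.006), so the numbers were not taken to pair them, and the replicate block called 9543 genes, 4743 higher and 4800 lower.

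List medians changed sign in these cases. With total count scaling they were 0.033 for H3K36 demethylases, 0.0072 for DNA replication, 0.0014 for mitosis, 0.13 for p53 targets, 0.070 for NF-kB and TNF targets, 0.14 for interferon-stimulated genes, 0.011 for cholesterol synthesis, 0.16 for stem cell genes and 0.14 for the core spliceosome. With upper-quartile scaling, p53 targets had 0.0062, interferon-stimulated genes 0.015, stem cell genes 0.033 and the core spliceosome 0.015. With the stricter filter, T and NK cell genes had 0.33, p53 targets 0.0093, interferon-stimulated genes 0.073, stem cell genes 0.19, the core spliceosome 0.037 and monocyte and macrophage genes -0.083. With the GC correction, p53 targets had 0.046, stem cell genes 0.17 and the core spliceosome 0.084. Immediate early genes (0.17) and dendritic cell genes (-0.010) turned without wild type replicate 1, and Polycomb genes without either wild type library (-0.030 and -0.020) or knockout replicate 1 (-0.00046). Stem cell genes had 0.074 without wild type replicate 1 and 0.092 and 0.11 without knockout replicates 1 and 2, and monocyte and macrophage genes -0.30, -0.014 and -0.11. For p53 targets, leaving out 1 library gave -0.057 to 0.025. The cause was not tested.

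Of 4939 pairs of a named gene and an alternative, 4653 kept direction and side of the threshold, 206 lost the call, 75 gained it and 5 reversed, the last counting uncalled values. Those were Tap2 with the GC correction (0.23) and 4 genes in which the wild type libraries differed: with 1 library left out, Nr4a1 had log2 fold changes of -0.42 to 0.70, Rgs1 of -0.54 to 0.68, Egr1 of -1.30 to 0.032 and Jun of -0.31 to 0.40. With 2 libraries a group, changes of 1.5-fold were recovered less often than those of 2-fold in simulated counts, and counting error of PCR reads without molecular identifiers sets a lower limit to the error of low genes.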

Other observations

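Genes mutated in myelodysplastic syndrome were called in both directions. Of 30 tested, 9 were called higher and 7 lower, with a median log2 fold change of 0.01. Over all protein-coding genes 16.4% were higher and 25.9% lower. Tet2, which oxidizes methylated cytosine, stood at 28.9 and 26.6 CPM in wild type and at 73.1 and 66.6 CPM in the knockout (log2 fold change 1.33 ± 0.171 SE, adjusted p = 1.85e-05). Zrsr2, a splicing factor of the minor spliceosome, stood at 22.9 and 25.5 CPM in wild type and at 37.8 and 40.3 CPM in the knockout (log2 fold change 0.69 ± 0.0912 SE, adjusted p = 2.38e-05). Bcorl1, a Polycomb partner encoded on the X chromosome, was lower (54 and 52.3 to 33.3 and 31.6 CPM, log2 fold change -0.71 ± 0.0927 SE, adjusted p = 2.18e-05), as were Idh1 (-0.52) and Idh2 (-0.51), which make alpha-ketoglutarate. The higher genes numbered 3 without wild type replicate 2 and 15 with total count scaling, and the lower genes 4 without wild type replicate 1 or knockout replicate 2.

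Replication-dependent histone genes, whose messages mostly lack a poly(A) tail, were lower in 14 of 52 cases and higher in 2 (median -0.63). Of all protein-coding genes 25.9% were lower and 16.4% higher, so the share of lower histone genes was near that of all. Linker histones stood among the lower: Hist1h1c went from 91.1 and 99.1 to 49.9 and 55.5 CPM (log2 fold change -0.85 ± 0.0974 SE, adjusted p = 5.69e-06) and Hist1h1b from 13.9 and 13.9 to 6.42 and 6.73 CPM (log2 fold change -1.08 ± 0.165 SE, adjusted p = 9.5e-05). Hist1h2bg was higher (10.2 and 8.8 to 20.3 and 19.3 CPM, log2 fold change 1.06 ± 0.134 SE, adjusted p = 1.61e-05). Many of these genes are near-identical copies, so reads may have been split between them. The lower genes numbered 7 with total count scaling, 8 without wild type replicate 2 and 9 without knockout replicate 2.

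Genes that set the wild type libraries apart included Tnfaip3, an inhibitor of NF-kB signaling (81 and 30.8 CPM), the lymphocyte activation antigen Cd69 (65.9 and 30.3 CPM), the nuclear receptor Nr4a1 (37.1 and 17.1 CPM) and Rgs1, a regulator of chemokine receptors (93.2 and 39.9 CPM). In the knockout libraries Tnfaip3 stood at 72 and 70.7 CPM, Cd69 at 77.1 and 70.5 CPM, Nr4a1 at 27.6 and 27.9 CPM and Rgs1 at 64.8 and 63.5 CPM, closer together in each case.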
